A study of Mus musculus with 9 samples.

Results

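Nuclear genes for the 5 complexes of the mitochondrial respiratory chain and ATP synthase were examined in bone marrow-derived macrophages (BMDMs), obtained from mouse marrow by culture with the growth factor CSF1. The members were chosen by symbol, as the Nduf subunits of complex I, the Sdh subunits of complex II, the Uqcr genes and Cyc1 of complex III, the Cox4 to Cox8 genes of complex IV and the Atp5 genes of complex V. The pattern matched 90 rows and 85 symbols, the row with most reads was kept for each symbol, and 79 genes with a scaled count (CPM, counts scaled to a common library total) above 1 in at least 3 libraries were analysed of 11950 genes that passed this filter in the whole series. All 36 complex I, 4 complex II and 9 complex III symbols passed, as did 13 of 18 for complex IV and 17 of 18 for complex V. Below the filter were Cox4i2 with 205 reads over the 9 libraries, Cox6b2 with 103, Atp5l2 with 202, and Cox7b2, Cox8b and Cox8c, which are listed at 0 reads.

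The BMDMs came from male wild-type C57BL/6 mice and were grown in medium with 50 ng/ml CSF1. Of 9 libraries, 3 were of cells left untreated (UNX), 3 of cells given medium conditioned by pulmonary artery adventitial fibroblasts of control calves (CO-CM) and 3 of cells given medium from fibroblasts of calves with hypoxia-induced pulmonary hypertension (PH-CM). Each conditioned medium was pooled from several fibroblast populations, so that the libraries repeat the macrophage culture and not the calves, and the labels give both 16 h and 24 h as the time of treatment. The methods of the study give a further time for the RNA cultures, so that the time is uncertain. CO-CM is the control for disease of the fibroblasts. UNX differs from both treated groups by the whole medium. The study grew the fibroblasts with bovine calf serum and added fetal bovine serum to their medium before use. Its methods name no CSF1 for the treatment itself. Fibroblast products and these other differences of the medium therefore cannot be told apart in comparisons with UNX.

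In textbook terms, complex I oxidizes NADH and complex II succinate, both pass electrons to ubiquinone, complex III carries them on to cytochrome c, complex IV hands them to oxygen, and complex V (ATP synthase) uses the proton gradient built by complexes I, III and IV to make ATP. Complexes I, III, IV and V mix nuclear subunits with subunits encoded in mitochondrial DNA, whereas complex II is nuclear throughout. Macrophages are known to lower oxidative phosphorylation and to lean on glycolysis in inflammatory activation, and to rely on it more in the alternative states linked to repair.

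Libraries held 62017933 to 84314201 counted reads. The first library of each group stood apart from the other two, with a chi-square per gene of 21.6 to 57.1 against them, beside 10.6 to 17.5 between the second and the third. The members took 0.759% to 0.780% of the reads in UNX, 0.671% to 0.714% in CO-CM and 0.608% to 0.628% in PH-CM, and these ranges do not overlap. Over TMM-scaled totals the shares were 0.725% to 0.765%, 0.669% to 0.732% and 0.611% to 0.638%, so that UNX and CO-CM overlapped and PH-CM lay below both. Reads on mitochondrial genes took 1.56% to 1.83% over all 9 libraries, with no such order of the groups. All 8 macrophage markers were measured, with a summed level of 11818 to 12613 CPM in UNX, 19014 to 19970 in CO-CM and 21462 to 23274 in PH-CM. Lyz2 weighs most in this sum, with 7212072 reads beside 1629450 for Cd68, the next. In PH-CM against UNX 7 were called higher and 0 lower, beside 31.3% and 31.7% of all genes. CO-CM against UNX had 5 higher and 1 lower, beside 28% and 28.9%, and PH-CM against CO-CM 4 higher and 0 lower, beside 12.2% and 15%. None of 6 neutrophil, 4 dendritic cell and 5 lymphocyte markers passed the filter. Fibroblast markers passed for 6 of 8 genes, at 198 to 249.9 CPM in sum in UNX, 267 to 318 in CO-CM and 250 to 336 in PH-CM, with Lum and Fbln1 below the filter. The 6 markers of cycling cells summed to 1739 to 1962 CPM in UNX, 292 to 346 in CO-CM and 204 to 231 in PH-CM, and all 6 were called lower in each of the 3 comparisons. The part of the cycling and fibroblast markers in the results on the members was not tested.

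Across the 5 complexes, more members were called lower than higher after PH-CM, against UNX and against CO-CM alike, whereas CO-CM differed from UNX in both directions. The comparisons with UNX share its 3 libraries, and their values are therefore given side by side only. A call needed a false discovery rate (FDR) no higher than 0.05 together with a change of 1.2 times or more in edgeR's quasi-likelihood test, with p-values adjusted over all 11950 genes. In PH-CM against UNX, 34 of 79 members were called lower and 5 higher, beside 31.7% and 31.3% of all genes tested, so that the share lower was above that of all genes and the share higher below it. In CO-CM against UNX, 10 members were called lower and 8 higher, beside 28.9% and 28% of all genes, and both shares were below those of all genes. That balance depended on scaling, with 14 lower and 5 higher by library size alone and 6 lower and 12 higher with upper-quartile factors. In PH-CM against CO-CM, 16 members were called lower and 0 higher, beside 15% and 12.2% of all genes, so that the share lower was slightly above that of all genes. That count of 0 was the same with the exact test of edgeR and with DESeq2, and no member was higher at an unadjusted p under 0.05. In bulk RNA, fewer cells of a type and less RNA per cell cannot be told apart.

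The differences were small, and many members met the FDR threshold with a change under 1.2 times. At an FDR of at most 0.05 with any fold change, 49 members were lower and 7 higher in PH-CM than in UNX, beside 37.4% and 37.1% of all genes. By the same rule 25 were lower and 13 higher in CO-CM than in UNX, beside 35.3% and 33.9%, and 42 were lower and 0 higher in PH-CM than in CO-CM, beside 20.2% and 17.7%. All 3 PH-CM libraries lay below all 3 UNX libraries for 50 members and above them for 7, where 38.8% and 38.9% of all genes did so. For CO-CM against UNX these counts were 28 below and 13 above, beside 36.7% and 35.4% of all genes, and for PH-CM against CO-CM 48 below and 0 above, beside 26.3% and 23.9%. The median log2 fold change of the members was -0.21 in PH-CM against UNX, -0.053 in CO-CM against UNX and -0.17 in PH-CM against CO-CM, whereas the medians over all genes tested were 0.0072, 0.0002 and -0.0064. Upper-quartile factors moved the median over all genes in CO-CM against UNX by 0.066, a shift larger than the members' -0.053 there. The number of members called lower in PH-CM against CO-CM was 8 without the third CO-CM library, and the number called higher in CO-CM against UNX was 5 without it. With the first library of every group left out, a fit added after the data were seen, 34 members were lower and 4 higher in PH-CM against UNX, 10 lower and 6 higher in CO-CM against UNX. PH-CM against CO-CM then had 17 lower and 0 higher.

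**Figure D1:**
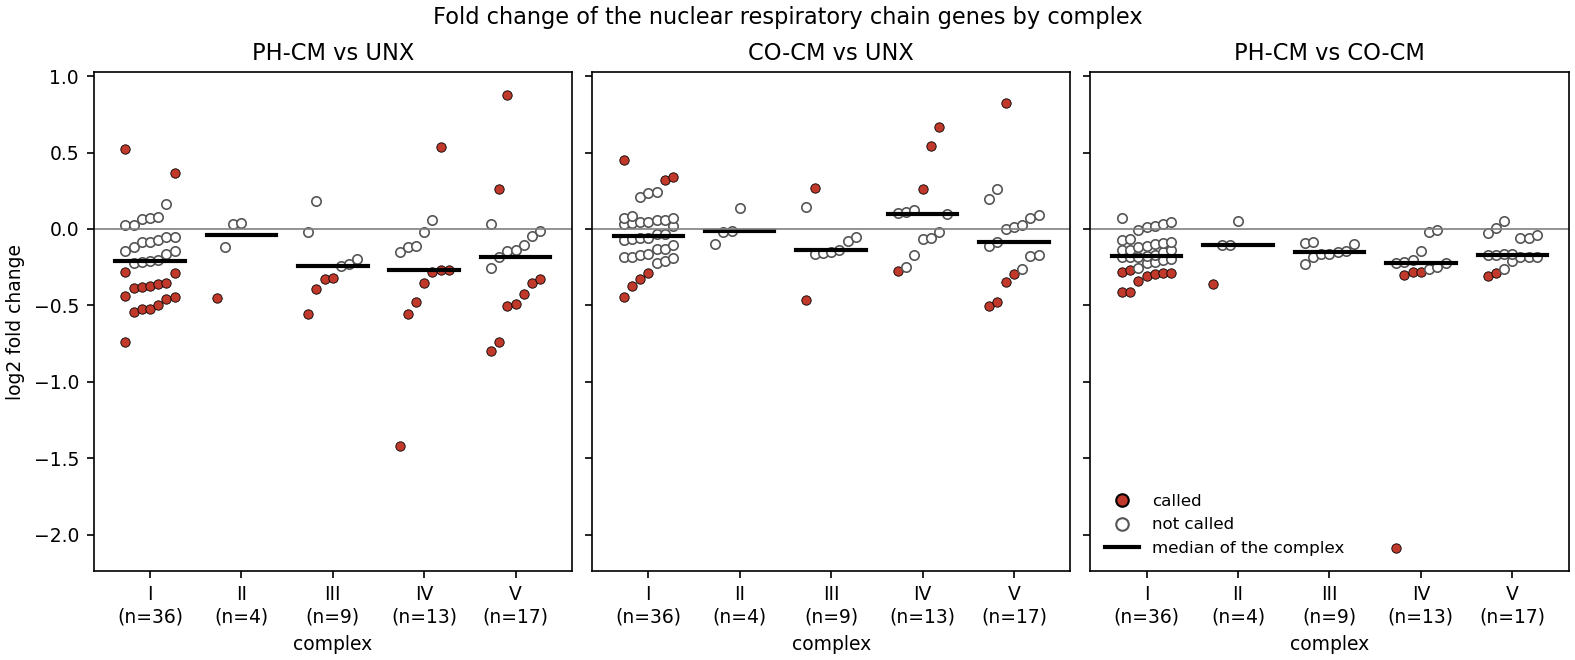
Log2 fold change (vertical axis) of each of the 79 members by complex in the 3 comparisons, as filled points where called and open points where not, with the median of each complex as a line. In PH-CM against CO-CM the medians of all 5 complexes lie below 0 and no called point lies above it.

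Each complex was also followed library by library, as the median over its members of log2 CPM relative to the mean of the UNX libraries. For complex I these medians were -0.049, 0.02 and 0.026 in the UNX libraries, -0.089, -0.057 and 0.0036 in CO-CM and -0.25, -0.18 and -0.16 in PH-CM. All 3 PH-CM libraries lay below the other 6, and CO-CM overlapped UNX. Complex IV ran from -0.070 to 0.050 in UNX, -0.047 to 0.11 in CO-CM and -0.30 to -0.20 in PH-CM, again with PH-CM apart. In complex III, the range was -0.035 to 0.025 in UNX, -0.19 to -0.037 in CO-CM and -0.28 to -0.18 in PH-CM, with overlap between the treated groups. Complex V had -0.044 to 0.022 in UNX, -0.14 to -0.052 in CO-CM and -0.20 to -0.14 in PH-CM, where the highest PH-CM library (-0.142) and the lowest CO-CM library (-0.145) overlapped narrowly. Complex II differed least, at -0.071 to 0.035 in UNX, -0.059 to 0.04 in CO-CM and -0.064 to -0.009 in PH-CM, and all 3 groups overlapped. Between libraries of the same replicate number, PH-CM lay below CO-CM and below UNX in all 3 pairs for complexes I, III, IV and V. CO-CM lay below UNX in all 3 pairs for complexes I, III and V and above it in all 3 for complex IV. For complex II the pairs differed in sign in each comparison.

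**Figure D2:**
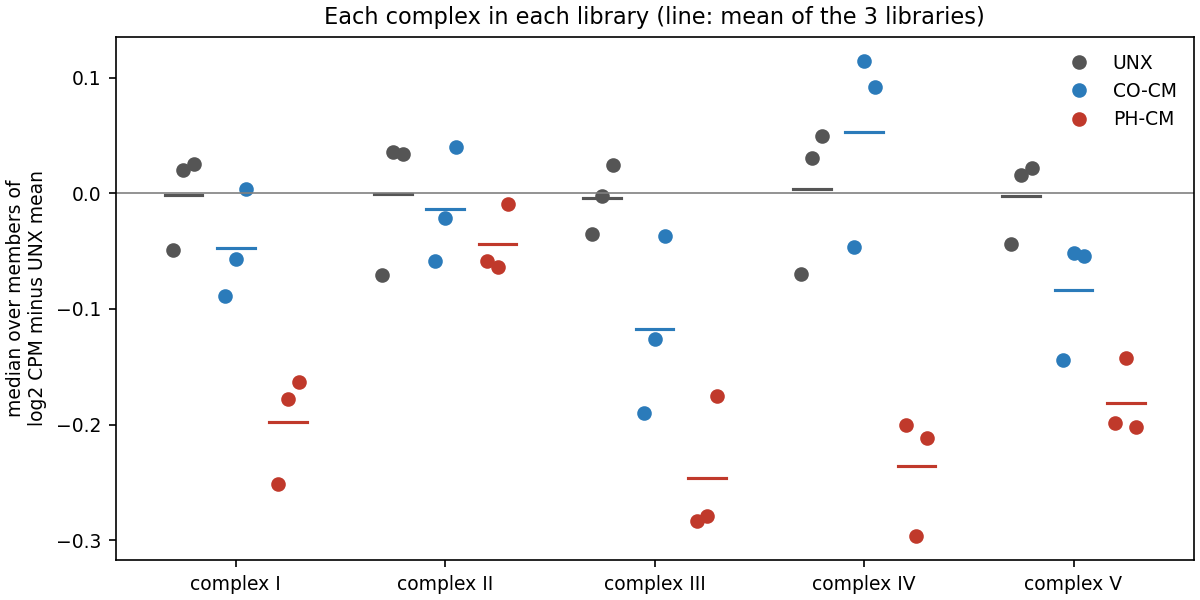
Median over the members of each complex of log2 CPM minus the UNX mean (vertical axis), for each of the 9 libraries, with a line at the mean of each group. The PH-CM points lie below all others in complexes I and IV, and the 3 groups overlap in complex II.

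Levels were compared between genes only per length, as RPKM (counts scaled to exon length and to the library total). The median member stood at 46.4 RPKM in UNX, against 6.69 for all genes tested, and 72 of the 79 members lay above that general median. Summed over its members, complex I stood at 1446 ± 27.0 (SD, n = 3) RPKM in UNX, 1392 ± 46.9 (SD, n = 3) in CO-CM and 1288 ± 31.6 (SD, n = 3) in PH-CM. Complex II summed to 229 ± 6.89 (SD, n = 3), 219 ± 7.25 (SD, n = 3) and 208 ± 3.56 (SD, n = 3) RPKM in the same order, and complex III to 612 ± 3.18 (SD, n = 3), 555 ± 17.7 (SD, n = 3) and 508 ± 15.0 (SD, n = 3). These sums put PH-CM at 0.891 of UNX for complex I, 0.909 for complex II and 0.830 for complex III. Complex IV summed to 1255 ± 41.3 (SD, n = 3), 1248 ± 56.4 (SD, n = 3) and 1080.4 ± 17.9 (SD, n = 3) RPKM, with PH-CM at 0.861 of UNX, and complex V to 1162 ± 17.2 (SD, n = 3), 988 ± 34.1 (SD, n = 3) and 887 ± 10.2 (SD, n = 3) RPKM, with PH-CM at 0.763 of UNX. In each of the 5 complexes all 3 PH-CM sums lay below those of the other 6 libraries, and CO-CM lay wholly below UNX only for complexes III and V. These RPKM carry no correction for library composition. With the library totals multiplied by the TMM factors, an alternative chosen after seeing the data, PH-CM lay wholly below the other 6 libraries for complexes I, III, IV and V but not II (205 to 215 in PH-CM, 211 to 228 in UNX), and CO-CM wholly below UNX for complex V alone. CO-CM then stood at 1.01 of UNX for complex I, 1.0032 for II and 1.04 for IV, above UNX in place of below it. With 3 libraries a group no exact permutation test of such a sum can reach a two-sided p under 0.10, so none is given.

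**Figure D3:**
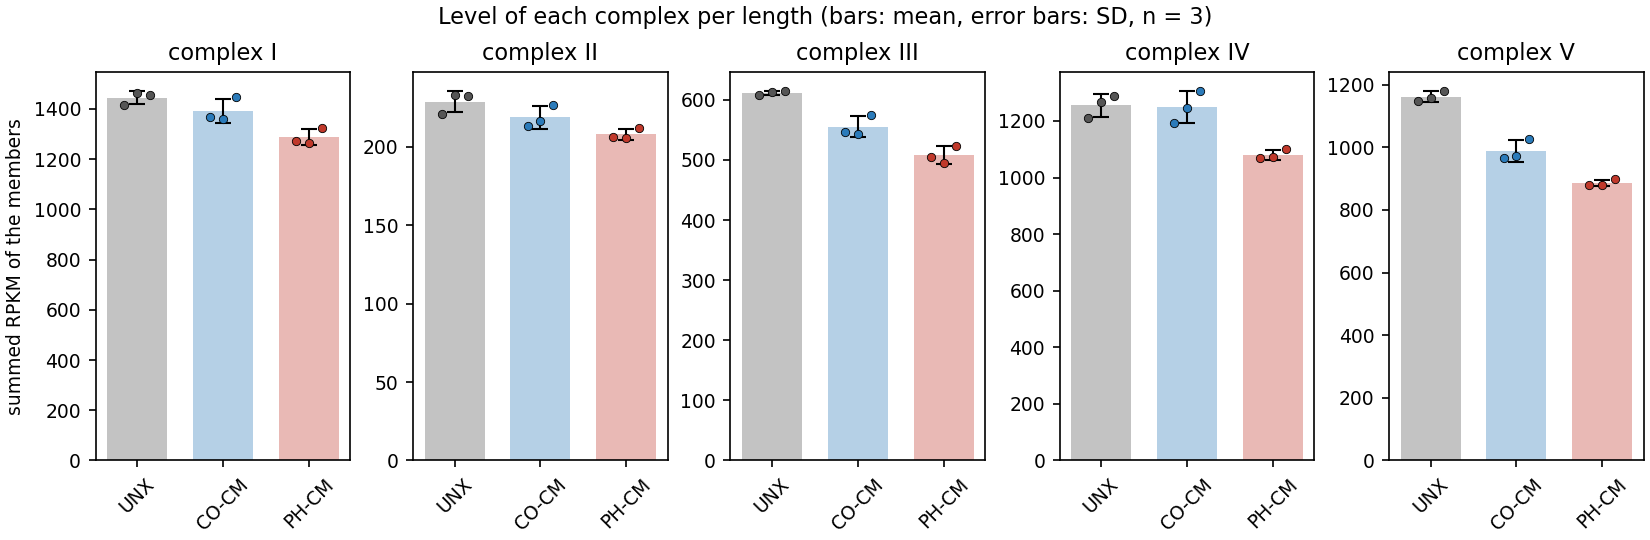
Summed RPKM of the members (vertical axis, from 0) of each complex in each library, with bars at the mean and error bars at the SD of 3 libraries per group. Complex V shows the largest step from UNX to the treated groups, with 1162 RPKM in UNX and 887 in PH-CM, and complexes I, II and IV overlap between UNX and CO-CM.

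RefSeq promoter windows (GRCm38.p6, 250 bases before to 50 after the start of transcription) matched 66 of the 79 members. Windows are shown for 6 members that the results below turn on. Ndufa12, Atp5g1 and Atp5b had the largest falls of complexes I and V in PH-CM against UNX. Uqcrc1 and Cox6a1 are a lower member each of complexes III and IV whose window holds the NRF1 letters, and Cox7a2l was higher. Capitals mark matches, on either strand, to the letters CGCATGCG of NRF1, CCGGAAG of ETS factors, AAGATGGCG of YY1, CCAAT of the box of that name or GGGCGG of Sp1, which are known from promoters of respiratory genes, and the sequences run 5′ to 3′ in the sense of the gene.
Ndufa12, chr10:94198785-94199084, plus strand: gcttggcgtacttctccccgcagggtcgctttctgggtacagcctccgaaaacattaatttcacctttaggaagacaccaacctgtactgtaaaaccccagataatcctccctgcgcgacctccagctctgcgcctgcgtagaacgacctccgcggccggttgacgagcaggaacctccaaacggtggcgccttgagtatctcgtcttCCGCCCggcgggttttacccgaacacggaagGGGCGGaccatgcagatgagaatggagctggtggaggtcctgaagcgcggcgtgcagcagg
Uqcrc1, chr9:108936398-108936697, plus strand: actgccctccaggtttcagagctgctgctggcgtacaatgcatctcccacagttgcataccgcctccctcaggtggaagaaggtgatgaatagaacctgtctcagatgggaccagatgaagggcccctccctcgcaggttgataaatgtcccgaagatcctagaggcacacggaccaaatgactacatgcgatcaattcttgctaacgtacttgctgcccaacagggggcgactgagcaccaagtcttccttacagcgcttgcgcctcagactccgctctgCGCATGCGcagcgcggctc
Cox6a1, chr5:115348909-115349208, minus strand: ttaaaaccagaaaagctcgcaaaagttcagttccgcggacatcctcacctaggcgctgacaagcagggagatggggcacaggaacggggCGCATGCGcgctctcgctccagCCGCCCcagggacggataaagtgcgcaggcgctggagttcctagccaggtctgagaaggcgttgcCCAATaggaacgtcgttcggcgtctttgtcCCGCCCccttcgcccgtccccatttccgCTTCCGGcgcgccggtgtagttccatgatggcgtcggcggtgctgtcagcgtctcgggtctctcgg
Cox7a2l, chr17:83514284-83514583, minus strand: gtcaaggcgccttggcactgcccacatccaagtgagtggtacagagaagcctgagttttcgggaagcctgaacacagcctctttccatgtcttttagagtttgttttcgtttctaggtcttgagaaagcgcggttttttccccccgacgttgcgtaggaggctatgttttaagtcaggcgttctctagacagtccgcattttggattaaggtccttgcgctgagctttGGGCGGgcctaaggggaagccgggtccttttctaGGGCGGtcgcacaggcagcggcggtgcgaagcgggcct
Atp5b, chr10:128083057-128083356, plus strand: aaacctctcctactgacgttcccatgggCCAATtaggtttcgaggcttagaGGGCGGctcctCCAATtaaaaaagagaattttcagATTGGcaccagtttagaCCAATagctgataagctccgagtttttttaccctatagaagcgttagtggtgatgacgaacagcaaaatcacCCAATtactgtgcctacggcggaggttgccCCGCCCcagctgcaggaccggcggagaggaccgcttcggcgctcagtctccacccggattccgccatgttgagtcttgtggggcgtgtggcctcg
Atp5g1, chr11:96075582-96075881, minus strand: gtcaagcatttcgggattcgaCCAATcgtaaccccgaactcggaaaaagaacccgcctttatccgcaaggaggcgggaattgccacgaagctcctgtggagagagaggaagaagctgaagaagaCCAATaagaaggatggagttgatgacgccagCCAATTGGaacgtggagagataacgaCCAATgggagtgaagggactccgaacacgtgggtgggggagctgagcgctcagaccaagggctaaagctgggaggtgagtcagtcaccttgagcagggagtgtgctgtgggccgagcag

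The NRF1 letters were found in the windows of 9 of the 66 matched members (13.6%), and in 2.07% of the 27025 genes with a window and 4.60% of those that were also tested here. The YY1 letters stood in 8 members (12.1%), beside 1.64% of all genes and 3.86% of tested ones, and the ETS letters in 16 (24.2%), beside 9.93% and 21.4%. CCAAT was found in 29 members (43.9%), about as often as in all genes (41.1%) and tested genes (43.4%), and GGGCGG in 26 (39.4%), beside 38.2% and 69.2%. Atp5b holds 5 CCAAT matches and 2 of GGGCGG, and Atp5g1 5 CCAAT matches, of which a pair overlaps on opposite strands. By call in PH-CM against UNX, the NRF1 letters stood in 5 of 29 matched members called lower, 0 of 5 called higher and 4 of 32 not called, and the ETS letters in 4, 0 and 12. In the same order, CCAAT stood in 7, 3 and 19, the YY1 letters in 3, 1 and 4 and GGGCGG in 14, 4 and 8. These matches describe the windows only.

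Complex I, the NADH dehydrogenase, is the largest of the set. In PH-CM against UNX it had 2 members called higher, 15 lower and 19 not called, beside 31.3% of all genes higher and 31.7% lower. The median log2 fold change was -0.21, with a range of -0.74 to 0.52. CO-CM against UNX had 3 higher and 4 lower, beside 28% and 28.9% of all genes, with a median of -0.047. With upper-quartile scaling it had 6 higher and 2 lower, with a median of 0.019. In PH-CM against CO-CM 9 were called lower and 0 higher, beside 15% and 12.2% of all genes, with a median of -0.175. Without the third CO-CM library the 9 became 4, and without the first CO-CM library the 3 higher in CO-CM against UNX became 5. The 7 core subunits, which hold the flavin, the iron-sulfur clusters and the ubiquinone site, had 2 called lower in PH-CM against UNX and a median of -0.14, beside 4 of 10 Ndufb subunits of the membrane arm (median -0.22) and 9 lower and 2 higher of 19 other accessory subunits (median -0.21). In PH-CM against CO-CM none of the 7 core subunits was called by the quasi-likelihood test, with 1 at an FDR of at most 0.05, whereas 4 of the 10 Ndufb subunits and 5 of the 19 others were called lower. Without the third CO-CM library these became 0 of 10 and 4 of 19, with 0 of 7 core subunits. The difference between the roles was not tested.

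Ndufa12, an accessory subunit of the matrix arm, fell most of complex I in PH-CM against UNX. It stood at 58.7, 61.7 and 63.9 CPM in the UNX libraries, 47.7, 45.7 and 53.4 in CO-CM and 39.2, 32.6 and 38.5 in PH-CM. The 3 groups do not overlap, and PH-CM was lower than UNX (log2 fold change -0.74, SE 0.0797, edgeR adjusted p = 1.11e-05) and lower than CO-CM (log2 fold change -0.41, SE 0.0798, edgeR adjusted p = 0.00234). CO-CM was also lower than UNX (log2 fold change -0.33, SE 0.0789, edgeR adjusted p = 0.0037), a call lost with upper-quartile scaling. Ndufa5, another subunit of the matrix arm, stood at 26.1, 28.2 and 27.9 CPM in the UNX libraries, 25.7, 23.0 and 26.5 in CO-CM and 19.4, 18.3 and 18.7 in PH-CM. It fell with PH-CM against UNX (log2 fold change -0.55, SE 0.0654, edgeR adjusted p = 2.50e-05) and against CO-CM (log2 fold change -0.41, SE 0.0656, edgeR adjusted p = 0.000705), while UNX and CO-CM overlapped. Ndufs4, whose loss causes Leigh syndrome, was at 27.3, 27.7 and 27.3 CPM in the UNX libraries, 23.8, 23.9 and 24.9 in CO-CM and 19.5, 18.6 and 19.2 in PH-CM. It was lower in PH-CM than in UNX (log2 fold change -0.52, SE 0.0490, edgeR adjusted p = 3.96e-06) and than in CO-CM (log2 fold change -0.34, SE 0.0491, edgeR adjusted p = 0.000378), and its 3 groups do not overlap.

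Among the core subunits, Ndufv2, an iron-sulfur protein of the NADH module, stood at 74.2, 74.3 and 75.2 CPM in the UNX libraries, 53.2, 56.6 and 62.7 in CO-CM and 49.4, 48.9 and 57.2 in PH-CM. It was called lower in PH-CM against UNX (log2 fold change -0.52, SE 0.0731, edgeR adjusted p = 7.66e-05) and in CO-CM against UNX (log2 fold change -0.37, SE 0.0728, edgeR adjusted p = 0.000968), with the treated groups overlapping. Ndufs8, an iron-sulfur protein next to the ubiquinone site, stood at 56.7, 55.1 and 59.9 CPM in the UNX libraries, 39.8, 40.7 and 45.5 in CO-CM and 40.5, 39.5 and 46.9 in PH-CM. It too was lower in both treated groups than in UNX (log2 fold change -0.44, SE 0.0750, edgeR adjusted p = 0.000349 for PH-CM, log2 fold change -0.45, SE 0.0749, edgeR adjusted p = 0.000351 for CO-CM), and PH-CM and CO-CM overlapped (0.0099 on the log2 scale). The other core subunits described here were not called in any comparison. In PH-CM against UNX, Ndufs1 had a log2 fold change of -0.14, Ndufs3 of -0.054, Ndufs7 of -0.20 and Ndufv1, the flavin subunit that binds NADH, of -0.12. Ndufv1 and Ndufv2, which sit side by side in the enzyme, had log2 fold changes of 0.069 and -0.37 in CO-CM against UNX.

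Members of complex I that were higher were small accessory subunits. Ndufa1 of the membrane arm stood at 35.6, 44.4 and 40.8 CPM in the UNX libraries, 50.7, 56.3 and 58.0 in CO-CM and 55.3, 56.7 and 61.5 in PH-CM, with UNX below the other 6 libraries. Both treated groups were higher than UNX (log2 fold change 0.52, SE 0.0826, edgeR adjusted p = 0.000194 for PH-CM, log2 fold change 0.45, SE 0.0826, edgeR adjusted p = 0.000656 for CO-CM). Ndufa6 was at 39.0, 46.0 and 41.8 CPM in the UNX libraries, 52.3, 55.5 and 52.9 in CO-CM and 50.6, 55.8 and 56.7 in PH-CM, and again both were higher (log2 fold change 0.36, SE 0.0674, edgeR adjusted p = 0.000609 for PH-CM, log2 fold change 0.34, SE 0.0674, edgeR adjusted p = 0.00107 for CO-CM). Ndufa7 behaved otherwise, at 57.1, 56.3 and 58.2 CPM in the UNX libraries, 66.5, 73.1 and 74.2 in CO-CM and 57.5, 59.6 and 57.9 in PH-CM. It was higher in CO-CM than in UNX (log2 fold change 0.32, SE 0.0492, edgeR adjusted p = 0.000203), a call lost when scaled by library size alone, and lower in PH-CM than in CO-CM (log2 fold change -0.29, SE 0.0493, edgeR adjusted p = 0.00112), a call lost without the third CO-CM library. Per length, Ndufa2 (112 RPKM in UNX) and Ndufa1 lead complex I, and Ndufa1 made up 6.83% of the summed RPKM of the complex in UNX and 10.6% in PH-CM. Ndufb2 stood lowest of the complex at 0.561 RPKM in UNX, and was named after its value was seen. It had 1975 reads in all, and its annotated exons together span 5628 bases, beside 572 for Ndufa2. Other genes overlap 7.9% of these exons. Its low rank therefore depends on the annotated length as well as on the reads, and the part of each was not tested.

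Ndufa4 bears a complex I name but is now counted as a subunit of complex IV. It stood at 63.3, 64.9 and 65.5 CPM in the UNX libraries, 54.9, 53.8 and 64.4 in CO-CM and 51.5, 47.8 and 50.1 in PH-CM, and was lower in PH-CM than in UNX (log2 fold change -0.37, SE 0.0672, edgeR adjusted p = 0.000479). With it moved, complex I had 14 of 35 members called lower in PH-CM against UNX and complex IV 8 of 14. Of all genes, 31.7% were called lower in that comparison.

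Complex II, the succinate dehydrogenase that also serves the TCA cycle, had calls in 1 of its 4 genes, the membrane anchor Sdhc. Of all genes, 31.7% were called lower in PH-CM against UNX and 15% in PH-CM against CO-CM. In CO-CM against UNX, 28.9% were called lower and 28% higher. Sdhc stood at 118, 130.3 and 129 CPM in the UNX libraries, 111, 119 and 123 in CO-CM and 88.5, 95.7 and 91.2 in PH-CM. UNX and CO-CM overlapped, all 3 PH-CM libraries lay below them, and PH-CM was lower than UNX (log2 fold change -0.45, SE 0.0559, edgeR adjusted p = 3.08e-05) and than CO-CM (log2 fold change -0.36, SE 0.0560, edgeR adjusted p = 0.000643). Its partner anchor Sdhd stood at 86.7, 98.0 and 94.2 CPM in the UNX libraries, 87.6, 92.0 and 96.0 in CO-CM and 91.4, 95.2 and 99.7 in PH-CM, with a log2 fold change of 0.038 in PH-CM against UNX (SE 0.0577), and the groups overlapped. The flavoprotein Sdha had log2 fold changes of -0.12 in PH-CM against UNX (edgeR adjusted p = 0.0278, under the fold threshold) and -0.011 in CO-CM against UNX, and the iron-sulfur subunit Sdhb of 0.032 and 0.14. No member of complex II was called in CO-CM against UNX by edgeR's quasi-likelihood test, its exact test or DESeq2, and 1 was higher at an unadjusted p under 0.05. None was called higher in the other comparisons by these 3 tests, nor at an unadjusted p under 0.05. Per length, Sdhc made up 17.4% of the complex in UNX and 13.4% in PH-CM.

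Complex III, the cytochrome bc1 complex, had 4 of 9 members called lower and 0 higher in PH-CM against UNX. This was beside 31.7% and 31.3% of all genes, and the median log2 fold change was -0.24. CO-CM against UNX had 1 lower and 1 (Uqcrh) higher (median -0.14), beside 28.9% and 28% of all genes. In PH-CM against CO-CM none was called by the quasi-likelihood test, the exact test of edgeR or DESeq2. By the first of these, 15% of all genes were called lower and 12.2% higher. However, 6 members were lower there at an unadjusted p under 0.05, and all 9 had a log2 fold change below 0 (median -0.15). At an unadjusted p under 0.05, 1 member was higher in PH-CM against UNX. Cyc1, the cytochrome c1 that passes electrons to cytochrome c, stood at 102, 97.7 and 99.7 CPM in the UNX libraries, 72.2, 69.2 and 75.2 in CO-CM and 67.1, 66.2 and 70.2 in PH-CM. UNX lay above the other 6 libraries, and Cyc1 was lower in PH-CM (log2 fold change -0.56, SE 0.0459, edgeR adjusted p = 1.47e-06) and in CO-CM (log2 fold change -0.47, SE 0.0458, edgeR adjusted p = 7.41e-06), while the treated groups overlapped.

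The Rieske protein Uqcrfs1, the other redox subunit, stood at 63.1, 67.0 and 67.1 CPM in the UNX libraries, 56.3, 58.8 and 61.7 in CO-CM and 50.8, 52.0 and 55.2 in PH-CM. It was called lower in PH-CM against UNX (log2 fold change -0.32, SE 0.0523, edgeR adjusted p = 0.000244), and its 3 groups do not overlap. Uqcrq, a small subunit, was at 96.5, 96.5 and 98.0 CPM in the UNX libraries, 85.0, 83.3 and 91.1 in CO-CM and 74.0, 72.0 and 75.3 in PH-CM, also with 3 separate groups (log2 fold change -0.40, SE 0.0446, edgeR adjusted p = 1.58e-05 for PH-CM against UNX). Of the core proteins, which have no redox centre, Uqcrc1 was lower in PH-CM than in UNX (log2 fold change -0.32, SE 0.0479, edgeR adjusted p = 0.000118), and Uqcrc2 had a log2 fold change of -0.20, under the fold threshold. Pdzd9, on the other strand, overlaps 19.7% of the Uqcrc2 exons, and reads there could have been lost or shared in counting. Uqcrh, the hinge protein that docks cytochrome c1, stood at 73.3, 80.9 and 77.6 CPM in the UNX libraries, 88.7, 94.5 and 96.2 in CO-CM and 83.7, 89.2 and 90.3 in PH-CM. It was called higher in CO-CM against UNX (log2 fold change 0.27, SE 0.0531, edgeR adjusted p = 0.00104), a call just past the threshold that was lost with library size alone, with no filter, with filterByExpr, and without the first or the third UNX, the second or the third CO-CM or the first PH-CM library.

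Complex IV, cytochrome c oxidase, had 1 member called higher and 7 lower of 13 in PH-CM against UNX, with a median log2 fold change of -0.27. Of all genes, 31.3% were called higher and 31.7% lower in that comparison. Complex IV had the lowest median of the complexes in PH-CM against CO-CM (-0.22, 4 lower and 0 higher), beside 15% and 12.2% of all genes. Without the second PH-CM library the 7 became 4, and without the third CO-CM library the 4 in PH-CM against CO-CM became 2. In CO-CM against UNX, 3 were called higher and 1 lower, beside 28% and 28.9% of all genes. The median of 0.10 was the only complex median above 0. The 10 ubiquitous subunits alone had 1 called higher and 1 lower and a median of -0.038, and with Ndufa4 counted in complex IV the median was 0.042. The median of all 13 became -0.032 without the first UNX library, the 3 higher became 1 without the third CO-CM library, and the 1 lower became 0 without the third UNX or the first CO-CM library and 2 without the first UNX or the third CO-CM library. All 13 members had a log2 fold change below 0 in PH-CM against CO-CM, and 9 of them had an FDR of at most 0.05.

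Cox7a2, a small subunit, stood at 69.3, 74.1 and 77.1 CPM in the UNX libraries, 56.8, 60.3 and 64.9 in CO-CM and 48.1, 50.0 and 51.8 in PH-CM. Its 3 groups do not overlap, and it was lower in PH-CM than in UNX (log2 fold change -0.56, SE 0.0610, edgeR adjusted p = 1.28e-05) and than in CO-CM (log2 fold change -0.28, SE 0.0611, edgeR adjusted p = 0.00478), the second call being lost without the third CO-CM or the first PH-CM library. It was also lower in CO-CM than in UNX (log2 fold change -0.28, SE 0.0607, edgeR adjusted p = 0.00209), a call lost with upper-quartile scaling or without the third UNX or the first CO-CM library. Cox7c was at 76.0, 78.2 and 78.9 CPM in the UNX libraries, 64.7, 69.6 and 72.7 in CO-CM and 55.9, 57.3 and 54.5 in PH-CM, with 3 separate groups too. PH-CM was lower than UNX (log2 fold change -0.48, SE 0.0500, edgeR adjusted p = 9.26e-06) and than CO-CM (log2 fold change -0.30, SE 0.0500, edgeR adjusted p = 0.000912). Cox6a1, the ubiquitous form of subunit 6a and the gene of the complex with the highest level per length (235 RPKM in UNX), was at 153, 159.5 and 168 CPM in the UNX libraries, 144, 157 and 157 in CO-CM and 125, 126 and 127 in PH-CM. UNX and CO-CM overlapped, and PH-CM was lower than UNX (log2 fold change -0.35, SE 0.0499, edgeR adjusted p = 9.06e-05) and than CO-CM (log2 fold change -0.28, SE 0.0499, edgeR adjusted p = 0.00141), the second call being lost without the second or the third CO-CM library.

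Calls of subunits that start the assembly of the complex fell in different comparisons, and the difference between the subunits was not tested. Cox4i1, the regulatory subunit 4, stood at 196, 208 and 214 CPM in the UNX libraries, 232, 253 and 258 in CO-CM and 200.01, 226 and 219.8 in PH-CM. It was higher in CO-CM than in UNX (log2 fold change 0.26, SE 0.0611, edgeR adjusted p = 0.00294), at the fold threshold, and this call was lost with library size alone, with no filter, with filterByExpr, and without the first or the second UNX, the second or the third CO-CM or the first PH-CM library. PH-CM overlapped UNX (0.062 on the log2 scale). Cox5a, its partner in an early assembly step, with 12.8% of its exons overlapped by another gene, was lower in PH-CM than in UNX (log2 fold change -0.27, SE 0.0516, edgeR adjusted p = 0.000811), as was Cox5b (log2 fold change -0.28, SE 0.0482, edgeR adjusted p = 0.000351). Both calls were lost with upper-quartile scaling. The Cox5a call was also lost without the second or the third UNX or the second or the third PH-CM library, and the Cox5b call without the second PH-CM library. The hypoxia-inducible form Cox4i2 stayed below the filter, with at most 58 reads in a library, seen in the third UNX library.

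Cox7a2l, a factor that joins complexes III and IV into supercomplexes and that C57BL/6 mice carry in a shortened form, was the member of complex IV that rose with either medium. It stood at 80.0, 90.3 and 88.3 CPM in the UNX libraries, 119, 130.2 and 127 in CO-CM and 119.6, 128 and 127 in PH-CM. UNX lay below the other 6 libraries, and it was higher in PH-CM (log2 fold change 0.53, SE 0.0574, edgeR adjusted p = 1.10e-05) and in CO-CM (log2 fold change 0.54, SE 0.0573, edgeR adjusted p = 1.31e-05), with a log2 fold change of -0.0069 between PH-CM and CO-CM (SE 0.0571). Cox6a2, the heart and muscle form of subunit 6a, was low, at 1.85, 2.15 and 1.76 CPM in the UNX libraries, 3.42, 2.14 and 3.58 in CO-CM and 0.759, 0.757 and 0.633 in PH-CM. It was lower in PH-CM than in UNX (log2 fold change -1.42, SE 0.224, edgeR adjusted p = 0.000194) and than in CO-CM (log2 fold change -2.09, SE 0.221, edgeR adjusted p = 5.13e-05), and called higher in CO-CM against UNX (log2 fold change 0.67, SE 0.199, edgeR adjusted p = 0.0119), where the second CO-CM library lay within the UNX range and the call was lost without the third CO-CM library. All 3 PH-CM libraries were under 1 CPM, so that Cox6a2 passed the filter only through UNX and CO-CM. The filter thus favoured the direction of its calls in PH-CM, which are counted in the totals of the complex. Of the 10 ubiquitous subunits alone, 6 were called lower in PH-CM against UNX, beside 31.7% of all genes, and 3 in PH-CM against CO-CM, beside 15%. Itgad, on the other strand, overlaps 10.3% of the Cox6a2 exons and was below the filter.

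**Figure D4:**
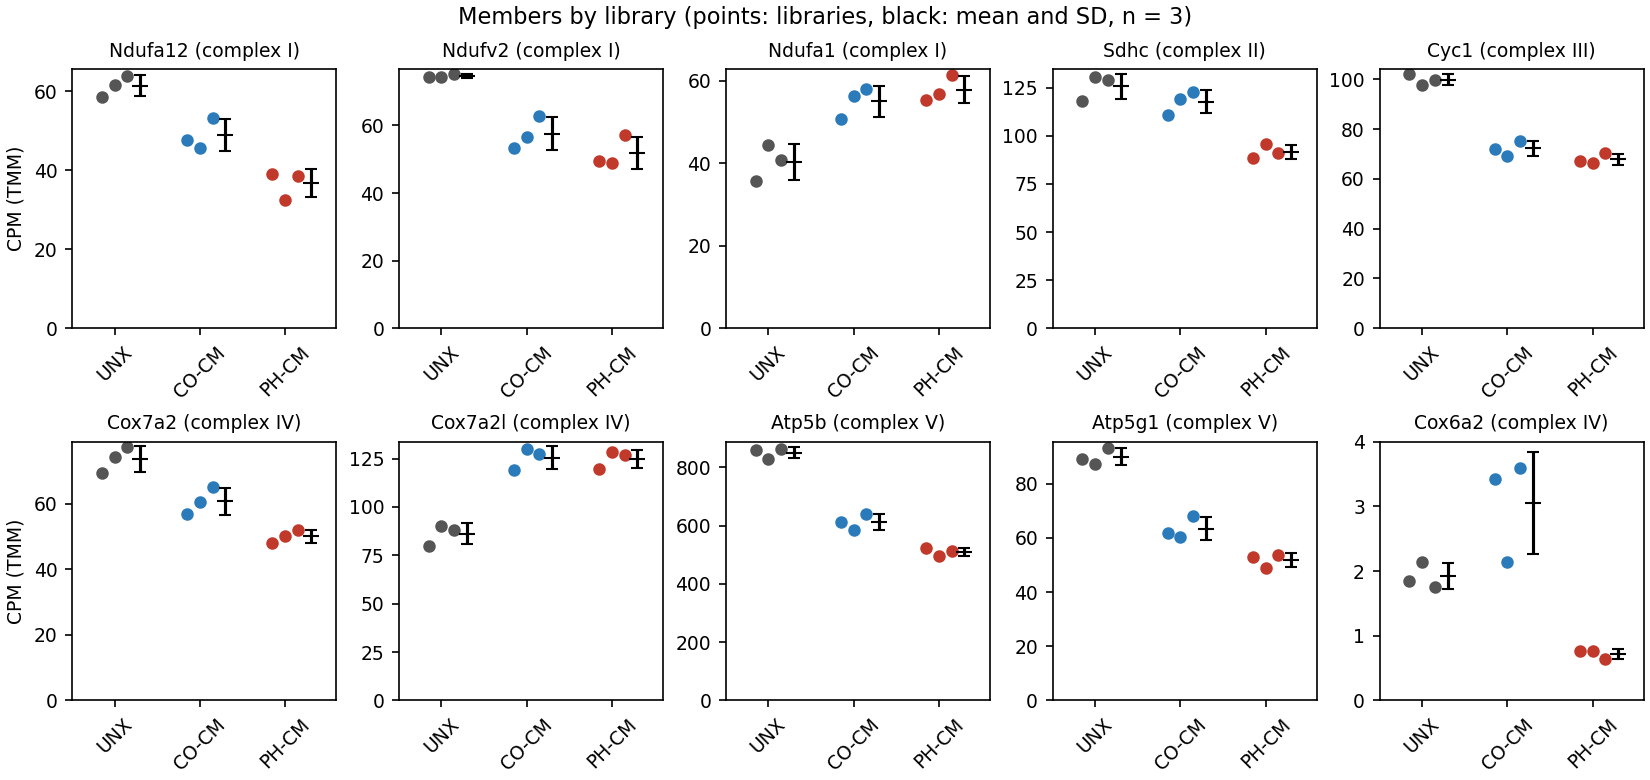
TMM-scaled CPM (vertical axes, from 0) of 10 members in each library, with the mean and SD of 3 libraries per group in black. Ndufa12, Cox7a2, Atp5b and Atp5g1 step down from UNX to CO-CM to PH-CM, Sdhc is low only in PH-CM, and Ndufa1 and Cox7a2l are higher in both treated groups.

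Complex V, the ATP synthase, had 2 genes called higher and 7 lower of 17 in PH-CM against UNX, with a median log2 fold change of -0.18, beside 31.3% of all genes called higher and 31.7% lower. CO-CM against UNX had 1 higher and 4 lower (median -0.082), beside 28% and 28.9%. That median lay nearer 0 with upper-quartile factors and further below it with library size alone. In PH-CM against CO-CM, 2 were called lower and 0 higher (median -0.17), beside 15% and 12.2% of all genes, and 1 was lower without the third CO-CM library or without the second PH-CM library. Without the first CO-CM library, 2 in place of 1 were higher in CO-CM against UNX, and the 2 higher in PH-CM against UNX became 1 without any UNX library, the second or the third CO-CM or the second PH-CM library. Both genes called higher carry an Atp5 symbol without being structural subunits, so of the 15 structural genes 7 were called lower and 0 higher in PH-CM against UNX. The calls fell on the c ring (3 of 3 genes lower), the F1 head and central stalk (2 of 5) and the peripheral stalk (2 of 4), while the 3 small membrane subunits, of which 1 had an FDR of at most 0.05, had log2 fold changes of -0.18 to 0.032.

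Atp5b, the catalytic beta subunit of F1, was the member with most reads (416824 over all libraries) and stood at 861, 827 and 862 CPM in the UNX libraries, 611, 584 and 639 in CO-CM and 522, 496 and 512 in PH-CM. Its 3 groups do not overlap, and it was lower in PH-CM (log2 fold change -0.74, SE 0.0493, edgeR adjusted p = 3.10e-07) and in CO-CM (log2 fold change -0.48, SE 0.0492, edgeR adjusted p = 1.11e-05) than in UNX. PH-CM against CO-CM gave log2 fold change -0.26, SE 0.0491, edgeR adjusted p = 0.00199, which just missed the fold threshold and passed it with DESeq2 and with upper-quartile scaling. The alpha subunit Atp5a1, which sits in F1 in equal number with beta, stood at 687, 710.1 and 732 CPM in the UNX libraries, 591, 631 and 674 in CO-CM and 551, 551 and 566 in PH-CM. It was lower in PH-CM than in UNX (log2 fold change -0.35, SE 0.0549, edgeR adjusted p = 0.000174) and had a log2 fold change of -0.17 in CO-CM against UNX, under the fold threshold. Per length, alpha and beta stood at 233 and 206 RPKM in UNX and at 175 and 119 in PH-CM, so that the share of the summed RPKM of the complex was 20% and 19.8% for alpha in UNX and PH-CM and 17.8% and 13.4% for beta. The gamma subunit Atp5c1, the rotating stalk, had a log2 fold change of -0.25 in PH-CM against UNX (edgeR adjusted p = 0.000752), just under the fold threshold.

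The c ring, which turns as protons pass, is made of a protein that 3 genes encode with the same mature sequence. Atp5g1 stood at 89.2, 87.2 and 93.3 CPM in the UNX libraries, 61.7, 60.3 and 68.1 in CO-CM and 52.8, 49.0 and 53.7 in PH-CM, with 3 separate groups. It showed the largest fall of any structural gene of complex V, in PH-CM (log2 fold change -0.80, SE 0.0585, edgeR adjusted p = 6.30e-07) and in CO-CM (log2 fold change -0.50, SE 0.0581, edgeR adjusted p = 2.40e-05) against UNX, and was lower in PH-CM than in CO-CM (log2 fold change -0.29, SE 0.0585, edgeR adjusted p = 0.00298), a call lost without the third CO-CM or the second PH-CM library. Atp5g2 was at 90.1, 92.3 and 93.3 CPM in the UNX libraries, 77.6, 84.0 and 81.9 in CO-CM and 61.5, 69.2 and 65.9 in PH-CM, lower in PH-CM than in UNX (log2 fold change -0.49, SE 0.0524, edgeR adjusted p = 1.10e-05) and than in CO-CM (log2 fold change -0.31, SE 0.0524, edgeR adjusted p = 0.0011), the latter call being lost without the first PH-CM library. Atp5g3, at 171, 178 and 189 CPM in the UNX libraries, 138, 135 and 151 in CO-CM and 127, 126 and 127 in PH-CM, was lower in both treated groups than in UNX (log2 fold change -0.51, SE 0.0525, edgeR adjusted p = 8.61e-06 for PH-CM, log2 fold change -0.34, SE 0.0524, edgeR adjusted p = 0.000179 for CO-CM). All 3 c ring genes therefore had PH-CM below CO-CM and CO-CM below UNX without overlap.

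Atp5sl, also named Dmac2, is known as a factor in the assembly of complex I and not as part of ATP synthase. It stood at 11.9, 13.5 and 12.5 CPM in the UNX libraries, 22.6, 23.9 and 20.7 in CO-CM and 22.3, 24.7 and 22.7 in PH-CM, with UNX below the other 6 libraries. It rose in PH-CM (log2 fold change 0.88, SE 0.0751, edgeR adjusted p = 1.97e-06) and in CO-CM (log2 fold change 0.82, SE 0.0750, edgeR adjusted p = 4.27e-06), the largest increase among all 79 members in both comparisons. Atp5s, also named Dmac2l and known as coupling factor B, was low, at 4.07, 4.24 and 4.20 CPM in the UNX libraries, 4.84, 5.09 and 5.05 in CO-CM and 4.60, 5.68 and 4.76 in PH-CM. It was called higher in PH-CM against UNX at the threshold (log2 fold change 0.26, SE 0.104, edgeR adjusted p = 0.0399). That call was lost with the exact test, library size alone, no filter, filterByExpr or only the 2 groups compared, and without any of the 3 UNX libraries, the second or the third CO-CM library or the second PH-CM library, and in the paired fit with replicate block its log2 fold change was 0.26 and fell just short of the fold threshold.

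The partner subunits encoded in mitochondrial DNA had medians near 0. Of 13 such genes 12 passed the filter, 3 were called lower in PH-CM against UNX, beside 31.7% of all genes (median log2 fold change -0.033), and 2 in CO-CM against UNX, beside 28.9% (median -0.024), and the median in PH-CM against CO-CM was -0.019. The genes called were mt-Nd1, at 2308 ± 60.9 CPM in UNX, 1740.1 ± 175 in CO-CM and 1648 ± 149.9 in PH-CM (log2 fold change -0.49, edgeR adjusted p = 0.000409 for PH-CM against UNX), mt-Nd2 (log2 fold change -0.39, edgeR adjusted p = 0.000383) and mt-Nd3, which had only 1.79 ± 0.0703 CPM in UNX. mt-Nd1 and mt-Nd2 were also the 2 called in CO-CM against UNX, at log2 fold changes of -0.41 and -0.31. mt-Co1, the catalytic subunit of complex IV, stood at 7298 ± 227, 8055 ± 179.6 and 8213 ± 209 CPM in the 3 groups, with a log2 fold change of 0.17 in PH-CM against UNX. Few reads were counted for mt-Co2 and mt-Co3, at 22.1 ± 1.12 and 16.0 ± 0.908 CPM in UNX, and how reads that fit several places were counted was not tested.

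Of the 15 complex I assembly factors measured, which build the complex without staying in it, 9 were called lower and 1 higher in PH-CM against UNX, beside 31.7% and 31.3% of all genes, and 6 lower in CO-CM against UNX, beside 28.9%. Ndufaf6 (log2 fold change -1.0, edgeR adjusted p = 0.000831) and Ndufaf2 (log2 fold change -0.89, edgeR adjusted p = 3.60e-05) fell most with PH-CM, Foxred1 rose (log2 fold change 0.26, edgeR adjusted p = 0.00312), and in CO-CM against UNX Ndufaf4 (log2 fold change -0.73, edgeR adjusted p = 0.000758) and Ndufaf6 (log2 fold change -0.61, edgeR adjusted p = 0.015) fell most. Ndufaf2, a paralog of Ndufa12 that precedes it in assembly, and Nubpl were the 2 called lower in PH-CM against CO-CM (log2 fold change -0.41, edgeR adjusted p = 0.0157 and log2 fold change -0.40, edgeR adjusted p = 0.00777). For complex II, Sdhaf4 was called lower of 4 measured in PH-CM against UNX (log2 fold change -0.43, edgeR adjusted p = 0.0133). For complex III, Bcs1l, which inserts the Rieske protein, and Uqcc2 were lower and Uqcc3 higher in both treated groups than in UNX (log2 fold change -0.44, edgeR adjusted p = 0.000765, log2 fold change -0.41, edgeR adjusted p = 5.35e-05 and log2 fold change 0.53, edgeR adjusted p = 0.000187 for PH-CM), and Uqcc1 was lower in CO-CM (log2 fold change -0.28, edgeR adjusted p = 0.00305).

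Those of complex IV had 4 of 19 higher and 5 lower in PH-CM against UNX, beside 31.3% and 31.7% of all genes, 5 higher and 4 lower in CO-CM against UNX, beside 28% and 28.9%, and a median log2 fold change of -0.034 in PH-CM against CO-CM. Surf1 (log2 fold change 0.64, edgeR adjusted p = 1.67e-05) and the copper carrier Cox17 (log2 fold change 0.61, edgeR adjusted p = 0.000733) rose most with PH-CM, and Cmc2 (log2 fold change -1.22, edgeR adjusted p = 4.21e-07) and Cox18 (log2 fold change -0.85, edgeR adjusted p = 6.07e-05) fell most. With CO-CM these were, against UNX, Surf1 (log2 fold change 0.49, edgeR adjusted p = 0.000156) and Pet100 (log2 fold change 0.45, edgeR adjusted p = 0.00194), and Cmc2 (log2 fold change -1.09, edgeR adjusted p = 1.32e-06) and Cox18 (log2 fold change -0.91, edgeR adjusted p = 4.57e-05). For complex V, Fmc1 (log2 fold change -1.05, edgeR adjusted p = 6.54e-06) and Atpaf2, a chaperone of the alpha subunit (log2 fold change -0.38, edgeR adjusted p = 0.000397), were lower in PH-CM than in UNX, and also in CO-CM (log2 fold change -0.50, edgeR adjusted p = 0.00127 and log2 fold change -0.54, edgeR adjusted p = 4.14e-05), where Tmem70 was the other gene of 3 called lower. Fmc1 was also lower in PH-CM than in CO-CM (log2 fold change -0.54, edgeR adjusted p = 0.00252).

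Cytochrome c and most of the called genes of ubiquinone synthesis were lower with either medium. Of 19 genes for ubiquinone synthesis, cytochrome c and electron input, 10 were called lower and 3 higher in PH-CM against UNX, beside 31.7% and 31.3% of all genes, and 7 lower and 3 higher in CO-CM against UNX, beside 28.9% and 28%. Pdss1, which starts the ubiquinone side chain, had 8.33 ± 0.584 CPM in UNX, 2.53 ± 0.751 in CO-CM and 2.13 ± 0.356 in PH-CM (log2 fold change -1.97, edgeR adjusted p = 6.34e-06 for PH-CM against UNX, log2 fold change -1.72, edgeR adjusted p = 1.94e-05 for CO-CM). Cycs, the somatic cytochrome c, had 71.4 ± 4.96, 31.7 ± 3.83 and 29.2 ± 3.02 CPM (log2 fold change -1.29, edgeR adjusted p = 8.94e-07 for PH-CM against UNX, log2 fold change -1.17, edgeR adjusted p = 2.57e-06 for CO-CM). Rising most were Coq8a (log2 fold change 1.64, edgeR adjusted p = 1.97e-06) and Coq8b (log2 fold change 0.79, edgeR adjusted p = 1.30e-06) in PH-CM against UNX, and in CO-CM against UNX the same genes (log2 fold change 2.04, edgeR adjusted p = 5.49e-07 and log2 fold change 0.77, edgeR adjusted p = 2.31e-06). In PH-CM against CO-CM, Gpd2, which feeds electrons from glycerol 3-phosphate to ubiquinone, was higher (log2 fold change 0.64, edgeR adjusted p = 0.000204) and Etfb (log2 fold change -0.60, edgeR adjusted p = 0.0262) and Coq8a (log2 fold change -0.40, edgeR adjusted p = 0.0321) were lower.

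The mitochondrial ribosomal proteins, which make the mitochondrially encoded subunits, had 54 of 77 genes called lower and 2 higher in PH-CM against UNX (median log2 fold change -0.39), beside 31.7% and 31.3% of all genes. They had 47 lower and 2 higher in CO-CM against UNX (median -0.32), beside 28.9% and 28%, and 6 lower and 2 higher in PH-CM against CO-CM (median -0.07), beside 15% and 12.2%. The respiratory chain members had a median of -0.17 there, and the difference was not tested. Mrps28 (log2 fold change -0.99, edgeR adjusted p = 6.92e-06) and Mrpl42 (log2 fold change -0.98, edgeR adjusted p = 1.08e-07) fell most and Mrpl41 (log2 fold change 0.45, edgeR adjusted p = 0.000325) and Mrpl24 (log2 fold change 0.39, edgeR adjusted p = 3.67e-05) rose most in PH-CM against UNX. In CO-CM against UNX, Mrpl18 (log2 fold change -0.90, edgeR adjusted p = 1.06e-06) and Mrps22 (log2 fold change -0.85, edgeR adjusted p = 1.30e-05) were lowest, and Mrpl24 (log2 fold change 0.40, edgeR adjusted p = 3.62e-05) and Mrpl41 (log2 fold change 0.31, edgeR adjusted p = 0.00406) highest. PH-CM against CO-CM had Mrps27 (log2 fold change -0.37, edgeR adjusted p = 0.00533) and Mrpl13 (log2 fold change -0.34, edgeR adjusted p = 0.00778) lowest and Mrps6 (log2 fold change 0.31, edgeR adjusted p = 0.04) and Mrpl33 (log2 fold change 0.29, edgeR adjusted p = 0.00418) highest.

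Among 13 regulators of mitochondrial transcription and biogenesis that passed, 8 were called lower in PH-CM against UNX, beside 31.7% of all genes, 6 in CO-CM against UNX, beside 28.9%, and Myc alone was lower in PH-CM against CO-CM (log2 fold change -0.55, edgeR adjusted p = 0.012). Myc, which drives growth and mitochondrial genes, fell from 91.2 ± 13 CPM in UNX to 12.2 ± 2.48 in CO-CM and 8.28 ± 0.398 in PH-CM (log2 fold change -3.46, edgeR adjusted p = 1.20e-08 for PH-CM against UNX), and Tfb1m, a methylase of mitochondrial ribosomal RNA, also fell (log2 fold change -0.85, edgeR adjusted p = 0.000823). In CO-CM against UNX, Myc (log2 fold change -2.91, edgeR adjusted p = 5.40e-08) and Gabpb1, a subunit of the ETS factor that binds respiratory gene promoters (log2 fold change -0.74, edgeR adjusted p = 1.70e-05), fell most. The coactivator Ppargc1a was below the filter.

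Inducible paralogs and inhibitors of the chain differed between the conditioned media as well as from UNX. Of 6 genes, 2 were called higher and 3 lower in PH-CM against UNX, beside 31.3% and 31.7% of all genes. They had 3 higher and 1 lower in CO-CM against UNX, beside 28% and 28.9%, and 1 higher and 3 lower in PH-CM against CO-CM, beside 12.2% and 15%. Atpif1, the inhibitor of reverse ATP synthase action, stood at 70.6 ± 7.90 CPM in UNX, 67.8 ± 5.82 in CO-CM and 47.1 ± 2.54 in PH-CM, and was lower in PH-CM than in CO-CM (log2 fold change -0.53, edgeR adjusted p = 0.00104). AA467197, the mouse gene for the Ndufa4 paralog NMES1, was low, at 1.51 ± 0.0761, 2.02 ± 0.231 and 0.995 ± 0.123 CPM (log2 fold change -1.02, edgeR adjusted p = 0.000743 for PH-CM against CO-CM), and Higd1a was higher in PH-CM than in CO-CM (log2 fold change 0.42, edgeR adjusted p = 0.0435). In PH-CM against UNX, Ndufa4l2, the hypoxia-inducible paralog of Ndufa4, was called higher at a very low level, 0.295 ± 0.302 CPM in UNX and 1.08 ± 0.641 in PH-CM with overlapping libraries (log2 fold change 1.84, edgeR adjusted p = 0.0314), and Higd2a rose as well (log2 fold change 0.64, edgeR adjusted p = 2.42e-06). In CO-CM against UNX, the uncoupling protein Ucp2 (log2 fold change 0.61, edgeR adjusted p = 6.75e-05) and Higd2a (log2 fold change 0.55, edgeR adjusted p = 1.01e-05) rose most, and Higd1a fell (log2 fold change -0.79, edgeR adjusted p = 0.000595).

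**Figure D5:**
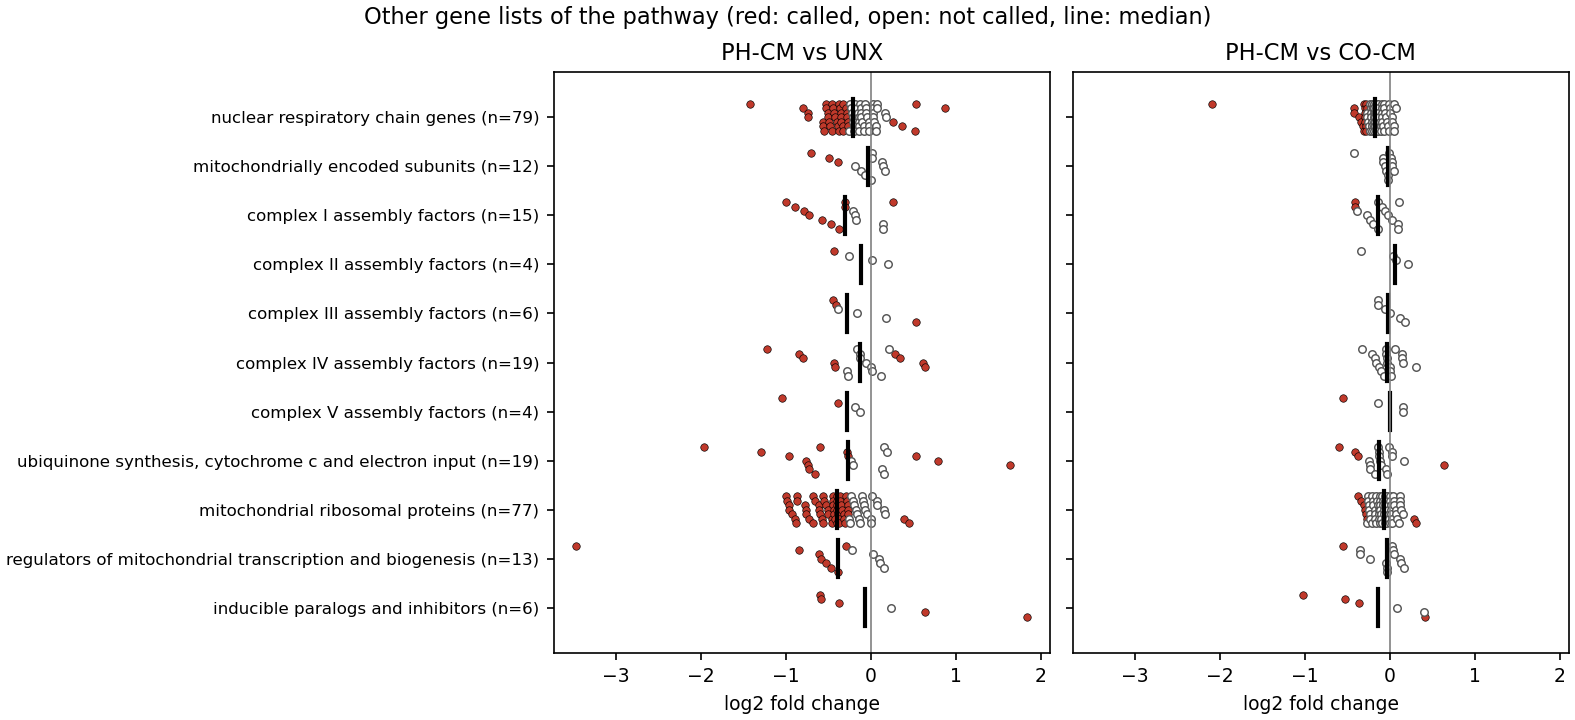
Log2 fold change (horizontal axis) of the 79 members and of the other gene lists of the pathway in PH-CM against UNX and PH-CM against CO-CM, in red where called, with the median of each list as a line. The mitochondrial ribosomal proteins have a lower median than the members in PH-CM against UNX (-0.39 and -0.21) and a median nearer 0 in PH-CM against CO-CM (-0.07 and -0.17).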

How the data were processed

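RNA of 9 BMDM cultures was sequenced. Per the labels, the authors trimmed the reads, used STAR to align them (GRCm38), counted reads per gene with featureCounts 1.6.2 and deposited the raw counts. They also deposited RPKM, which divide the counts by exon length and counted reads, without a composition factor. The counting call that the study states sets the feature type and the gene identifier and shows no setting for strand, read pairs or multi-mapping reads. Of nonzero counts under 20, 81.4% to 83.8% were even, so that both mates of a pair appear to have been counted. The authors' tables of comparisons (log2 fold changes, p-values and FDR, made with edgeR 3.14 in R 3.4.3) were not used. Symbols cut at a hyphen were restored by gene ID from the reference.

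Counts were tested with edgeR 4.0.16 (R 4.3.3) by the quasi-likelihood method after TMM scaling, in 1 fit of the 9 libraries with a mean per group. Genes above 1 CPM in at least 3 libraries entered, p-values were adjusted by Benjamini and Hochberg, and a call required an FDR no higher than 0.05 with a change of 1.2 times or more, as in the study. SE is the log2 fold change divided by the square root of F. Alternatives were edgeR's exact test, DESeq2 1.42.0, other scalings, filters and thresholds, a replicate block and the omission of each library. Deviations of libraries with the same replicate number from their group means correlated at 0.276 to 0.484 (9 pairs), beside -0.376 to 0.042 for the other 18 pairs, which met the criterion for pairing. The p-values given are from the fit without the block, and the blocked value is given where it changed a call. P-values measure the spread between macrophage cultures only. Members and lists were chosen with earlier results of these data known. Genes were named by rule: the catalytic or core subunits of each complex, the 3 called members with the largest increase and decrease in each comparison, and, for other lists, the 2. A member is counted in the totals but not reported by name.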

Additional observations from a re-analysis of the deposited data

How the results depend on the processing

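Over 18 alternatives, 49 of 73 calls of single members were kept in each, 24 were lost in at least 1, and none of the 237 member results was called in the opposite direction. Of the 39 calls in PH-CM against UNX 33 were kept, of 18 in CO-CM against UNX 10, and of 16 in PH-CM against CO-CM 6. The paired fit with replicate block changed 1 call, Atp5s, so that complex V had 1 member higher in PH-CM against UNX, as it also had with the exact test, library size alone, no filter, filterByExpr, only the 2 groups compared, or the first library of every group left out. The causes of these changes were not tested. Precision is limited for Ndufb2, Cox6a2, Cox7a1 and Atp5s, which are under 6 CPM, and 12 members share over 10% of their exons with another gene.

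Without a fold change threshold more genes pass by construction. PH-CM against UNX then gave 2 lower in complex II, 1 higher and 7 lower in complex III and 11 lower in complex V. CO-CM against UNX gave 13 members higher and 25 lower, with 6 and 11 in complex I, 2 and 4 in III, 3 lower in IV and 2 and 7 in V. PH-CM against CO-CM gave 42 members lower, with 19 in complex I, 6 in III, 9 in IV and 7 in V.

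Scaling by library size alone moved the median of all genes by -0.057 in PH-CM against UNX and -0.070 in CO-CM against UNX. The complex medians were then -0.26 (I), -0.099 (II), -0.30 (III) and -0.24 (V) in PH-CM against UNX and -0.12 (I), -0.083 (II), -0.21 (III) and -0.15 (V) in CO-CM against UNX, where 5 members were higher and 14 lower. Upper-quartile factors left 4 members of complex IV lower in PH-CM against UNX and 1 of complex III lower in PH-CM against CO-CM. In CO-CM against UNX they gave 6 members lower and 12 higher, 6 higher and 2 lower in complex I, 0 lower in IV, 2 higher in V, and medians of 0.019 (I) and 0.052 (II), both reversed, -0.074 (III) and -0.016 (V). DESeq2 and its size factors gave 2 higher in complex V there. Library size alone, no filter and filterByExpr each gave 0 higher in complex III and 2 lower in complex IV in CO-CM against UNX, leaving out the first library of every group also gave 0 higher in complex III, and the complex V median in PH-CM against UNX was -0.23 with no filter and -0.22 with filterByExpr.

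With 1 library left out at a time, PH-CM against UNX gave 4 to 7 lower in complex IV, 1 to 2 higher in complex V and a complex V median of -0.24 to -0.15. CO-CM against UNX gave 5 to 11 members higher, 3 to 5 higher in complex I, 0 to 1 higher in III, 1 to 3 higher and 0 to 2 lower in IV with a median of -0.032 (reversed, without UNX replicate 1) to 0.11, and 1 to 2 higher in V. PH-CM against CO-CM gave 8 to 20 members lower, 4 to 11 in complex I (median -0.20 to -0.12), 2 to 6 in IV and 1 to 3 in V (median -0.20 to -0.12).

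Taking the median over the members of RPKM in place of the sum gave ratios of PH-CM to UNX of 0.803 (I), 0.85 (III), 0.734 (IV) and 0.748 (V), of CO-CM to UNX of 0.920 (I), 0.989 (II), 0.863 (IV) and 0.806 (V), and of PH-CM to CO-CM of 0.873 (I), 0.948 (III) and 0.928 (V). With TMM-scaled library totals, chosen after seeing the data, the sums gave ratios of PH-CM to UNX of 0.927 (I), 0.945 (II), 0.863 (III), 0.895 (IV) and 0.794 (V), and of CO-CM to UNX of 1.011 (I), 1.0032 (II) and 1.044 (IV), these 3 reversed, 0.952 (III) and 0.892 (V).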
